A study of Mus musculus with 6 samples.

Results

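p53 response genes are genes that the transcription factor p53 is known to switch on, and 10 of them were followed here in cultured mouse small-intestinal organoids: Cdkn1a, Gadd45a, Ccng1, Mdm2, Fas, Bax, Bbc3, Sesn1, Trp53inp1 and Zmat3. They were chosen by symbol, each matched 1 row of the deposited read-count table, and they are 10 of its 24594 genes. All 10 passed the filter on low counts, which kept 12592 genes. The organoids were treated for 24 h with NIBR-LTSi at 5 uM (3 libraries) or with the matching amount of its solvent DMSO (3 libraries), after 96 h of growth from single cells, by which time crypt and villus structures had formed. Organoids of both groups were digested to single cells before RNA extraction, and the labels name the tissue (small intestine) but no mouse strain, genotype or age. The compound inhibits LATS1 and LATS2, Hippo pathway kinases that hold back the co-activators YAP and TAZ. The labels do not say whether replicates were separate cultures, and the p-values therefore cover only the variation among these libraries, which may be technical.

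p53 (gene Trp53) is kept scarce by the ubiquitin ligase MDM2, whose own gene p53 activates, so that the pair forms a feedback loop. After DNA damage or other stress p53 accumulates and binds as a tetramer to paired decamers in its target genes, whose products halt the cell cycle, start apoptosis, aid repair or adjust metabolism. In the intestinal crypt the p53 targets p21 (Cdkn1a) and PUMA (Bbc3) are known for their parts in the response to radiation, and in human cells LATS2 is known to bind MDM2.

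With NIBR-LTSi the p53 response genes did not move together. Trp53inp1, Fas, Gadd45a and Sesn1 fell, Ccng1 rose, and Cdkn1a, Mdm2, Bax, Bbc3 and Zmat3 were not called. The changes were small: the log2 fold changes (NIBR-LTSi over DMSO) ranged from -0.45 for Trp53inp1 to 0.16 for Ccng1, with a median of -0.13, against a median of 0.02 over all genes tested. The test was edgeR's quasi-likelihood F-test with Benjamini-Hochberg adjustment over all genes tested, and a gene was called at an adjusted p under 0.05. By it 42% of all genes tested were called (22.8% higher and 19.2% lower), so 5 calls among 10 genes are near the background share. The libraries of the groups did not overlap for 6 of the 10 genes, against 52.5% of all genes tested. The median absolute log2 fold change was 0.15 over the 10 genes and 0.19 over all genes tested.

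Total counts per library ranged from 19323994 to 26767043 with NIBR-LTSi and from 18395427 to 25238809 with DMSO, and the 10 genes had between 220 (Bbc3) and 4769 (Cdkn1a) reads in a library. Levels are given as CPM, read counts scaled to library size with TMM factors. All 10 epithelial markers, Epcam and Vil1 among them, were above 0.5 CPM on average over the 6 libraries. Of 10 immune markers 6 were below that level, of 10 fibroblast and muscle markers 9, and of 10 endothelial and neural markers 9. No read in any library was found for 10 of these markers, Cd3e, Dcn, Cdh5 and Sox10 among them. The summed immune list was at 21.8 to 24.7 CPM with NIBR-LTSi and 27.8 to 28.6 CPM with DMSO. It came mostly from Lyve1 and Itgam, with Ptprc at 0.0945 CPM at most. Of the 4 immune markers that passed the filter 1 was called lower and 3 were not called (25% called, against 42% of all genes tested). Whether such cells bear on the other results was not tested. In such bulk samples fewer cells of a type and less RNA per cell cannot be told apart.

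The promoters of 8 of the 10 genes are held in the RefSeq table used here (GRCm38.p6), as 12 windows from 250 bases before to 50 bases after a transcript start. The p53 decamer consensus, which reads alike on both strands, was found in 6 of these 12 windows and in 8.36% of all 32851 promoter windows. A double site, defined as 2 decamers side by side with their C and G cores whole and at most 2 mismatches, was found in the upstream window of Cdkn1a and in the window of Ccng1, each with 1 mismatch, and in 0.326% of all windows. The motif of the TEAD factors, the DNA-binding partners of YAP and TAZ (GGAATG, searched on both strands), was in none of the 12 windows and in 14.7% of all windows. These matches describe the sequence of these windows only. The 4 windows below are shown because they hold a decamer in the gene with the highest level (Cdkn1a), the gene that rose (Ccng1), the feedback gene (Mdm2) and a gene that fell (Gadd45a); capitals mark decamers and double sites.
Cdkn1a, upstream start, chr17:29090729-29091028, plus strand: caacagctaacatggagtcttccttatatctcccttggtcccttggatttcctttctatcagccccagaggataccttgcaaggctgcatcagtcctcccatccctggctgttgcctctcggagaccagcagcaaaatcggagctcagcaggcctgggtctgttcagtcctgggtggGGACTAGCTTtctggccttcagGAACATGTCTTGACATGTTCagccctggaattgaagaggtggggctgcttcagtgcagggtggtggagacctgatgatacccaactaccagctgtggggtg
Ccng1, chr11:40755237-40755536, minus strand: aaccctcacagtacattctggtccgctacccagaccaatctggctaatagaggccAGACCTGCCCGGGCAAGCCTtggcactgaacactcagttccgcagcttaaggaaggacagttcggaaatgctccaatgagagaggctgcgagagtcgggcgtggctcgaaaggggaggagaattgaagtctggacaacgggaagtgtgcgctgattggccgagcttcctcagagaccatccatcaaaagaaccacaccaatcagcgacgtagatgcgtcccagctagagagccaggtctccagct
Mdm2, chr10:117710709-117711008, minus strand: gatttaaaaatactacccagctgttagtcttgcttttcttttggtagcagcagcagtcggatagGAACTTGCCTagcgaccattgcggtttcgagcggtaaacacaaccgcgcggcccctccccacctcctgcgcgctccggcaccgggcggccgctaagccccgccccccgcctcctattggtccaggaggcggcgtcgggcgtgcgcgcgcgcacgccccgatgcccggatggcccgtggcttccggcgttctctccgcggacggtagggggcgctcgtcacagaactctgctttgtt
Gadd45a, chr6:67037358-67037657, minus strand: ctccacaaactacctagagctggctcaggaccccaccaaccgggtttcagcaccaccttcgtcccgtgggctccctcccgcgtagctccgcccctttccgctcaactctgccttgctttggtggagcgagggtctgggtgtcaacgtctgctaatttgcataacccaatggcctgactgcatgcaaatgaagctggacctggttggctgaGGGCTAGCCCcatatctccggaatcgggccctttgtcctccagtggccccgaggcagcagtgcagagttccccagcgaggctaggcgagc
The double site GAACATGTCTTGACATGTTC of Cdkn1a lies 51 to 32 bases before that start, with a single decamer just upstream of it, and the double site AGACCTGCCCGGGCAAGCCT of Ccng1 lies 195 to 176 bases before its start. The decamers of Mdm2 and Gadd45a begin 186 and 40 bases before the start. Fas and Bbc3 had no decamer in any window shown by the table, and Bax and Sesn1 had 1 each.

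Both arrest genes were measured well above the filter, and they differed. Cdkn1a (Entrez 12575; GRCm38 chromosome 17, 29090979 to 29100722) encodes p21, the inhibitor of cyclin-dependent kinases through which p53 halts the cell cycle. It was at 184, 175 and 174 CPM in NIBR-LTSi replicates 1 to 3, against 181, 184 and 175 CPM in DMSO replicates 1 to 3. The groups overlapped, with a mean of 178 ± 5 CPM with NIBR-LTSi and 180 ± 5 CPM with DMSO (SD, n = 3 each). The log2 fold change was -0.02 ± 0.04 (SE; adjusted p = 0.769), with a 95% interval of 0.93 to 1.05 on the fold scale. Its sign turned under 4 of the 17 processing alternatives, none of which called it. GENCODE M21 gives Cdkn1a 3553 exon bases, of which 273 overlap an unclassified transcript on the other strand. The deposited gene width is 2718 bases, so how many of the 273 lie in counted exons is not known. The strand setting of the counting is not given in the sources used here.

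Gadd45a (Entrez 13197; chromosome 6, 67035096 to 67037407), whose product binds PCNA and p21 and activates stress kinases, fell. It was at 28.4, 29.8 and 30.7 CPM with NIBR-LTSi, against 40.5, 37.1 and 37.8 CPM with DMSO. Every NIBR-LTSi library lay below every DMSO library, which was so for 24.5% of all genes tested. The log2 fold change was -0.38 ± 0.06 (SE; adjusted p = 3.19e-04), a 1.30-fold fall. Here too an antisense transcript, E230016M11Rik, shares 337 of 1764 exon bases.

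The pair of genes that feed back on p53 also differed. Ccng1 (Entrez 12450; chromosome 11, 40748552 to 40755309) encodes cyclin G1, which brings the phosphatase PP2A to MDM2. It was at 140, 132 and 135 CPM with NIBR-LTSi, against 120, 121 and 122 CPM with DMSO. All NIBR-LTSi libraries were above all DMSO libraries, which was so for 28% of all genes tested, and the spread within DMSO was small (CV of 0.763%). It rose 1.12-fold (log2 fold change 0.16 ± 0.04, adjusted p = 0.00616), and the rise passed the threshold in all 17 alternatives, with adjusted p between 9.43e-04 and 0.0347.

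Mdm2 (Entrez 17246; chromosome 10, 117688875 to 117710758) was at 56.5, 53.2 and 56.0 CPM with NIBR-LTSi, against 60.4, 60.1 and 58.9 CPM with DMSO. The groups did not overlap, yet the difference missed the threshold (log2 fold change -0.12 ± 0.05, adjusted p = 0.0662), with a 95% interval of 0.861 to 0.991 on the fold scale before adjustment for multiple tests. It passed with DESeq2 size factors in edgeR (adjusted p = 0.0419) and after the gene width adjustment (0.0182; 0.0390 with the replicate block). It also passed without NIBR-LTSi replicate 1 and DMSO replicate 3 together (0.0289).

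**Figure D1:**
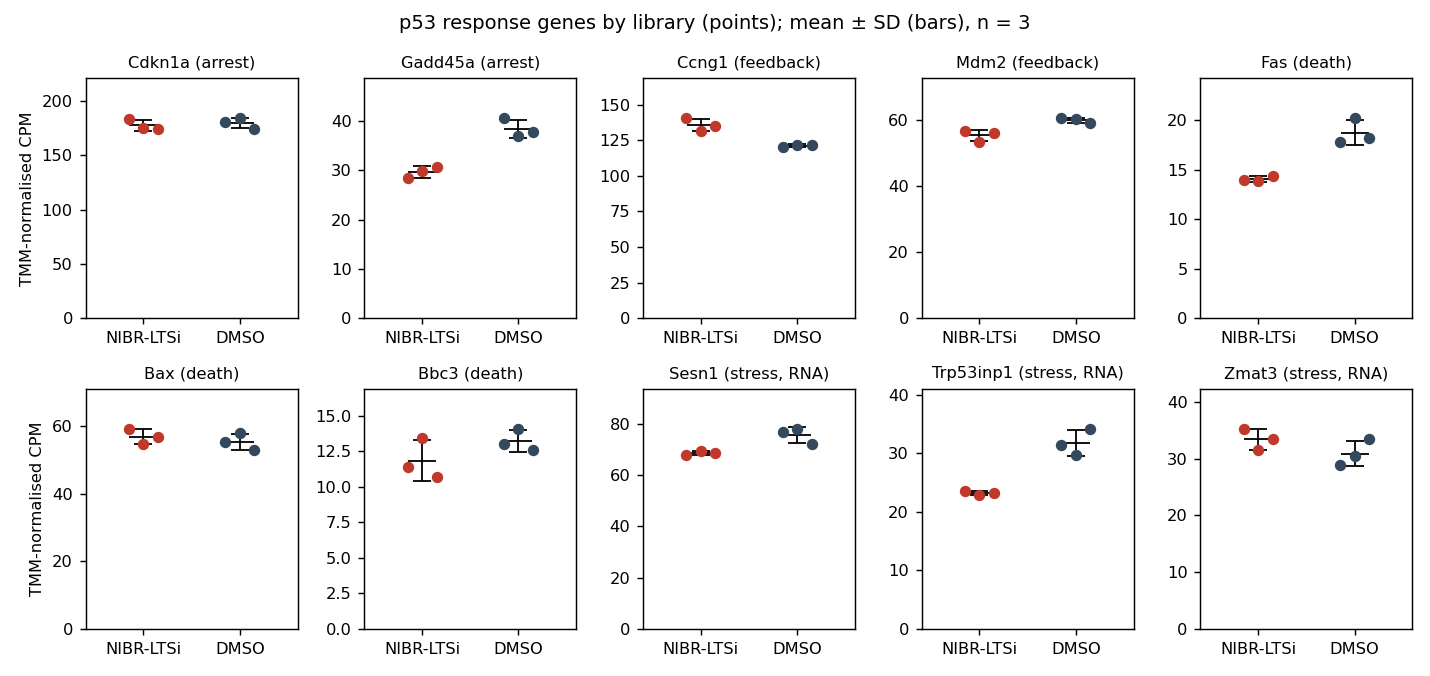
Level of each p53 response gene in TMM-normalised CPM (linear axis from 0) in the 3 NIBR-LTSi and the 3 DMSO libraries; points are libraries and bars are the mean ± SD. Gadd45a, Fas, Sesn1, Trp53inp1 and Mdm2 lie lower in every NIBR-LTSi library and Ccng1 higher, while Cdkn1a, Bax, Bbc3 and Zmat3 overlap.

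Of the genes of cell death, the receptor gene fell and the mitochondrial genes were not called. Fas (Entrez 14102; chromosome 19, 34290647 to 34327775) encodes the death receptor CD95. It was at 13.99, 13.8 and 14.3 CPM with NIBR-LTSi, against 17.8, 20.2 and 18.2 CPM with DMSO. The groups were apart, with a 1.33-fold fall (log2 fold change -0.41 ± 0.07, adjusted p = 8.28e-04). Its ligand gene Fasl had no read in any library, which allows at most 0.110 to 0.167 CPM (3 counts in a library; this covers counting error only). Fadd, the adaptor that binds the receptor, was at 33.4 ± 0.4 CPM with NIBR-LTSi and 33.4 ± 1.95 CPM with DMSO.

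Bax (Entrez 12028; chromosome 7, 45461695 to 45466903), the pore former of the mitochondrial outer membrane, was at 59.1, 54.7 and 56.7 CPM with NIBR-LTSi, against 55.1, 57.8 and 52.9 CPM with DMSO. The libraries were interleaved (log2 fold change 0.04 ± 0.05, adjusted p = 0.575), with a 95% interval of 0.95 to 1.11 on the fold scale. Another gene model in GENCODE M21, Gm45808, shares 192 of its 1576 exon bases on the same strand, so reads there may be uncertain. Whether this affected the Bax counts was not tested. Bbc3 (Entrez 170770; chromosome 7, 16308398 to 16318334) encodes PUMA, a BH3-only protein that frees BAX and BAK. It was at 11.4, 13.5 and 10.7 CPM with NIBR-LTSi, against 13.0, 14.1 and 12.6 CPM with DMSO. With NIBR-LTSi it had the widest spread of the 10 genes (CV of 12.1%), while with DMSO its CV was 5.79%. Its log2 fold change of -0.16 ± 0.10 (adjusted p = 0.231) came with an interval of 0.774 to 1.04 on the fold scale.

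The remaining genes act in stress responses and RNA control. Trp53inp1 (Entrez 60599; chromosome 4, 11156441 to 11174379), a stress protein that takes part in p53 phosphorylation and in autophagy, had the strongest fall. It was at 23.5, 22.9 and 23.1 CPM with NIBR-LTSi, against 31.4, 29.7 and 34.1 CPM with DMSO. The NIBR-LTSi libraries were close together (CV of 1.37%) and all below the DMSO libraries, a 1.37-fold fall (log2 fold change -0.45 ± 0.06, adjusted p = 1.52e-04). Over all genes tested 19.5% had a larger absolute log2 fold change.

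Sesn1 (Entrez 140742; chromosome 10, 41810574 to 41908436) encodes sestrin 1, a stress-induced inhibitor of mTORC1 signalling. It was at 67.7, 69.4 and 68.5 CPM with NIBR-LTSi, against 76.9, 77.9 and 72.2 CPM with DMSO. The groups did not overlap and the fall of 1.10-fold passed the threshold (log2 fold change -0.14 ± 0.05, adjusted p = 0.0261). This call did not hold when NIBR-LTSi replicate 1, 2 or 3 was left out (adjusted p = 0.0550, 0.0505 and 0.0579), nor without DMSO replicate 1 or 2 (0.101 and 0.0703), nor with library totals only (0.113).

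Zmat3 (Entrez 22401; chromosome 3, 32334792 to 32365665), an RNA-binding zinc finger protein that regulates splicing and RNA stability, was at 35.2, 31.6 and 33.4 CPM with NIBR-LTSi, against 28.9, 30.4 and 33.4 CPM with DMSO. Only DMSO replicate 3 reached the range of the NIBR-LTSi libraries. The log2 fold change was 0.11 ± 0.07 (adjusted p = 0.219), with an interval of 0.974 to 1.198 on the fold scale.

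**Figure D2:**
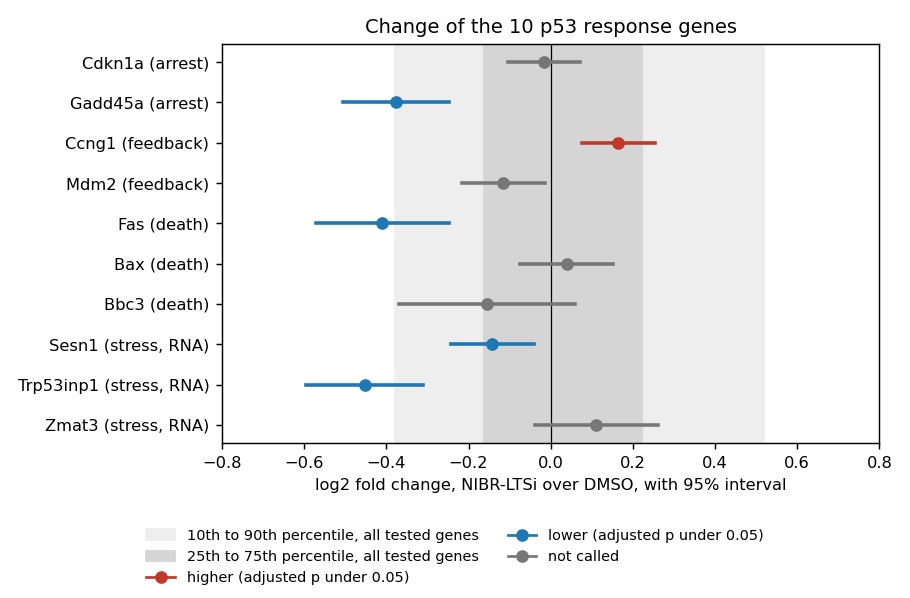
Log2 fold change (NIBR-LTSi over DMSO, x axis) of the 10 p53 response genes with its 95% interval before adjustment for multiple tests; grey bands span the 10th to 90th and the 25th to 75th percentiles of all genes tested. Only Fas and Trp53inp1 lie beyond the lower end of the wide band, which is at -0.38, and Gadd45a (-0.38) lies at its edge.

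Levels of different genes were compared per kilobase of the deposited gene width (CPM per kilobase). The order was led by Cdkn1a in both groups, at 65.4 ± 1.9 with NIBR-LTSi and 66.1 ± 1.8 with DMSO (SD, n = 3 each). Ccng1 and Bax came next, at 38.6 ± 1.2 and 36.1 ± 1.4 with NIBR-LTSi and at 34.5 ± 0.3 and 35.1 ± 1.5 with DMSO, where their libraries overlapped. Gadd45a and Sesn1 were at 16.8 ± 0.6 and 17.2 ± 0.2 with NIBR-LTSi, with overlapping libraries, and at 21.8 ± 1.0 and 19.0 ± 0.8 with DMSO, where they were apart. Mdm2, Fas and Bbc3 followed, at 10.9 ± 0.3, 6.81 ± 0.12 and 5.58 ± 0.68 with NIBR-LTSi, against 11.8 ± 0.2, 9.08 ± 0.61 and 6.22 ± 0.36 with DMSO. The lowest pair changed places: Trp53inp1 was at 3.58 ± 0.05 and Zmat3 at 4.13 ± 0.22 with NIBR-LTSi, against 4.90 ± 0.35 and 3.82 ± 0.28 with DMSO, with no overlap between the 2 genes in either group.

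**Figure D3:**
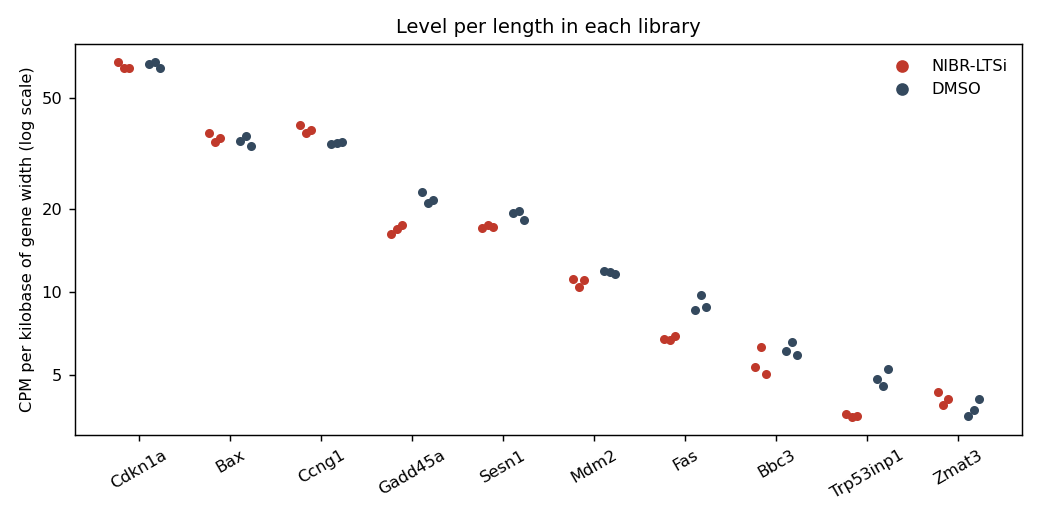
Level per length of each p53 response gene (CPM per kilobase of gene width, log axis) in every library, ordered by the DMSO mean. Cdkn1a is highest at 65.4 with NIBR-LTSi and 66.1 with DMSO, and Trp53inp1 and Zmat3 are lowest in both groups.

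Other genes of the pathway were counted from lists chosen by name, with earlier results of these data known. The lists of further p53 targets held 44 tested genes, of which 10 rose, 7 fell and 27 were not called; their median was 0.12 (log2 fold change). The share called was 38.6%, near the 42% of all genes tested. Several well-known direct targets were not called: Pmaip1, which encodes NOXA, was at 142 ± 7 CPM with NIBR-LTSi and 150 ± 7 CPM with DMSO (adjusted p = 0.236). Perp, a desmosomal target needed in epithelia, was at 150 ± 3 CPM with NIBR-LTSi and 162 ± 6 CPM with DMSO (adjusted p = 0.0588); it passed when NIBR-LTSi replicate 1 was left out (0.0418), without NIBR-LTSi replicate 1 and DMSO replicate 3 together (0.0180), with DESeq2 size factors (0.0413) and with a minimum of 1 CPM in 3 libraries (0.0488). Without NIBR-LTSi replicate 1 and DMSO replicate 3 the number of further targets that fell was 11, against 7 with all libraries. Over all genes the number called lower ranged from 1921 to 2892 over the 17 alternatives, against 2421 as reported.

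Among targets of arrest, 2 of 8 tested genes fell and 2 rose (50% called, against 42% of all genes tested). Btg2, an antiproliferative gene, was at 92.9, 97.0 and 101 CPM with NIBR-LTSi, against 209, 205 and 200 CPM with DMSO. That is a 2.11-fold fall with the groups far apart (log2 fold change -1.08 ± 0.04, adjusted p = 5.85e-09). Plk3, a stress-responsive polo-like kinase, was at 14.3, 22.5 and 21.5 CPM with NIBR-LTSi, against 47.1, 41.4 and 43.5 CPM with DMSO (2.24-fold lower, adjusted p = 0.00204). Pml, the scaffold of nuclear bodies, rose 1.31-fold (adjusted p = 1.49e-04), and Gtse1, a p53 target that is also a mitotic spindle gene, rose 1.54-fold (adjusted p = 3.73e-04).

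Among targets of cell death, 4 of 13 tested genes rose and none fell. That is 30.8% called, against 42% of all genes tested (22.8% higher and 19.2% lower). Siva1, a pro-apoptotic adaptor, rose 2.52-fold to 5.87 ± 0.48 CPM, against 2.34 ± 0.26 CPM with DMSO (adjusted p = 1.88e-05). Bid, the BH3-only link from caspase 8 to mitochondria, rose 1.36-fold (adjusted p = 8.77e-05), the apoptosome scaffold Apaf1 1.24-fold (0.00253) and the exonuclease Aen 1.28-fold (0.0114). Of 7 targets of DNA repair and nucleotide supply only the replication clamp Pcna was called (14.3%, below the 42%). It rose 1.37-fold (adjusted p = 7.79e-06), while the repair genes Xpc and Polh had adjusted p-values of 0.195 and 0.213.

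Among 16 targets of metabolism, redox and secretion, 5 fell and 3 rose (50% called, against 42% of all genes tested). The phosphomannomutase gene Pmm1 fell 1.62-fold (adjusted p = 6.47e-06), the mTORC1 inhibitor Ddit4 1.48-fold (3.12e-05), the copper chaperone Sco2 1.23-fold (0.00101), the glutathione peroxidase Gpx1 1.21-fold (0.00107) and the tetraspanin Cd82 1.12-fold (0.00442). The glutaminase Gls2 rose 1.97-fold from a low level, at 3.71 ± 0.16 CPM with NIBR-LTSi and 1.86 ± 0.40 CPM with DMSO (adjusted p = 0.00137). Lpin1 and Prkab1, a lipid phosphatase and an AMPK subunit, rose 1.16-fold (adjusted p = 0.0288) and 1.10-fold (0.0373). The Lpin1 call did not hold without NIBR-LTSi replicate 2 (0.0551) or 3 (0.160) or DMSO replicate 1 (0.0848) or 2 (0.103), nor in DESeq2 (0.0504). The Prkab1 call did not hold without NIBR-LTSi replicate 2 (0.174) or 3 (0.123) or DMSO replicate 1 (0.118) or 3 (0.0742), without NIBR-LTSi replicate 1 and DMSO replicate 3 together (0.0804), in DESeq2 (0.199) or with DESeq2 size factors (0.0682).

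Of 21 tested regulators of p53, 5 rose and 4 fell (median log2 fold change 0.11). The 42.9% called are near the 42% of all genes tested. Trp53 itself was at 66.3, 71.4 and 72.9 CPM with NIBR-LTSi, against 60.0, 62.7 and 57.6 CPM with DMSO. It rose 1.17-fold with no overlap (log2 fold change 0.23 ± 0.05, adjusted p = 0.00436), while Trp63 and Trp73, its relatives, did not pass the filter. Npm1, the nucleolar protein that binds ARF and MDM2, rose 1.31-fold (adjusted p = 7.65e-06). The ubiquitin ligases Trim24 and Cop1, both of which target p53, rose 1.24-fold (8.74e-04) and 1.15-fold (0.00414), and the p53 deacetylase Sirt1 1.18-fold (0.0188). Mdm4, the partner of MDM2, was at 84.9 ± 8.12 CPM with NIBR-LTSi and 88.3 ± 8.05 CPM with DMSO (adjusted p = 0.634).

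The regulators that fell were Rchy1, a further p53 ubiquitin ligase (1.12-fold, adjusted p = 0.0266), the acetyltransferase Kat5 (1.12-fold, 0.0282), Ppp1r13b, which encodes ASPP1 (1.11-fold, 0.0336), and the damage scaffold Trp53bp1 (1.19-fold, 0.0481). None of these 4 calls held when NIBR-LTSi replicate 3 was left out (adjusted p = 0.0956 for Rchy1, 0.0810 for Kat5, 0.0746 for Ppp1r13b and 0.105 for Trp53bp1), and none held without DMSO replicate 1 (0.0939, 0.112, 0.0886 and 0.138 in the same order). All were lost with library totals only. DESeq2 did not call Kat5 (0.0665) or Trp53bp1 (0.0738), nor Sirt1 (0.0618), and Trp53bp1 was also not called in limma-voom (0.0664) or with upper-quartile factors (0.0548). With NIBR-LTSi replicate 1 and DMSO replicate 3 both left out, Ppp1r13b (0.0512) and Trp53bp1 (0.177) were not called. Without NIBR-LTSi replicate 2 the calls of Kat5 (0.0606), Ppp1r13b (0.104) and Trp53bp1 (0.0608) were lost, and so was that of Sirt1 (0.0804). Sirt1 was also lost without NIBR-LTSi replicate 3 (0.0917) or DMSO replicate 2 (0.0686), Rchy1 without DMSO replicate 2 (0.0805), and Trp53bp1 without NIBR-LTSi replicate 1 (0.0943). Without DMSO replicate 3, Kat5 (0.0555), Ppp1r13b (0.117) and Trp53bp1 (0.179) were not called. With all libraries 9 regulators were called, with NIBR-LTSi replicate 2 left out 5, with NIBR-LTSi replicate 3 left out 4 and with DMSO replicate 1 left out 5. Over all genes 5287 were called with all libraries and 4212 to 5105 when 1 library was left out.

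Upstream of p53, 9 of 17 genes of DNA damage signalling rose and none fell, at a median of 0.28 (log2 fold change). The share called was 52.9%, against 42% of all genes tested (22.8% higher and 19.2% lower). The other 8 were not called, among them the kinase genes Atm (adjusted p = 0.604), Atr (0.137) and Prkdc (0.367). Topbp1, which activates the kinase ATR, rose 1.53-fold to 60.3 ± 2.1 CPM, against 39.4 ± 0.8 CPM with DMSO (adjusted p = 1.60e-06). Clspn, which encodes the CHK1 adaptor claspin, rose 1.72-fold (adjusted p = 3.56e-05) and the nuclease gene Mre11a 1.33-fold (7.81e-04). The checkpoint kinase Chek1 rose 1.42-fold (adjusted p = 0.00964; 0.0881 without NIBR-LTSi replicate 1 and DMSO replicate 3), and Chek2 was at 19.6 ± 0.5 CPM with NIBR-LTSi and 18.5 ± 1.45 CPM with DMSO (adjusted p = 0.394).

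Cell-cycle genes that p53 is known to lower through p21 and the DREAM repressor complex all rose. Of the list 20 of 20 were called higher, against 22.8% of all genes tested, and the median rise was 1.58-fold. This list too was chosen with earlier results of these data known. In all 20 the NIBR-LTSi libraries lay above the DMSO libraries, which was so for 28% of all genes tested. Kif23, a kinesin of cytokinesis, rose 3.54-fold to 117 ± 4 CPM, against 33.0 ± 2.7 CPM with DMSO (adjusted p = 1.15e-09). The cytokinesis regulator Ect2 rose 2.70-fold (adjusted p = 2.31e-08) and the cyclin Ccna2 1.67-fold (1.96e-07). The smallest rise of the list was that of Birc5, the gene of survivin, at 1.35-fold (4.13e-04). Cdkn1a, through which this repression is known to run, had a log2 fold change of -0.02 in the same libraries. The p21 protein was not measured, and the cause of the rise was not tested.

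**Figure D4:**
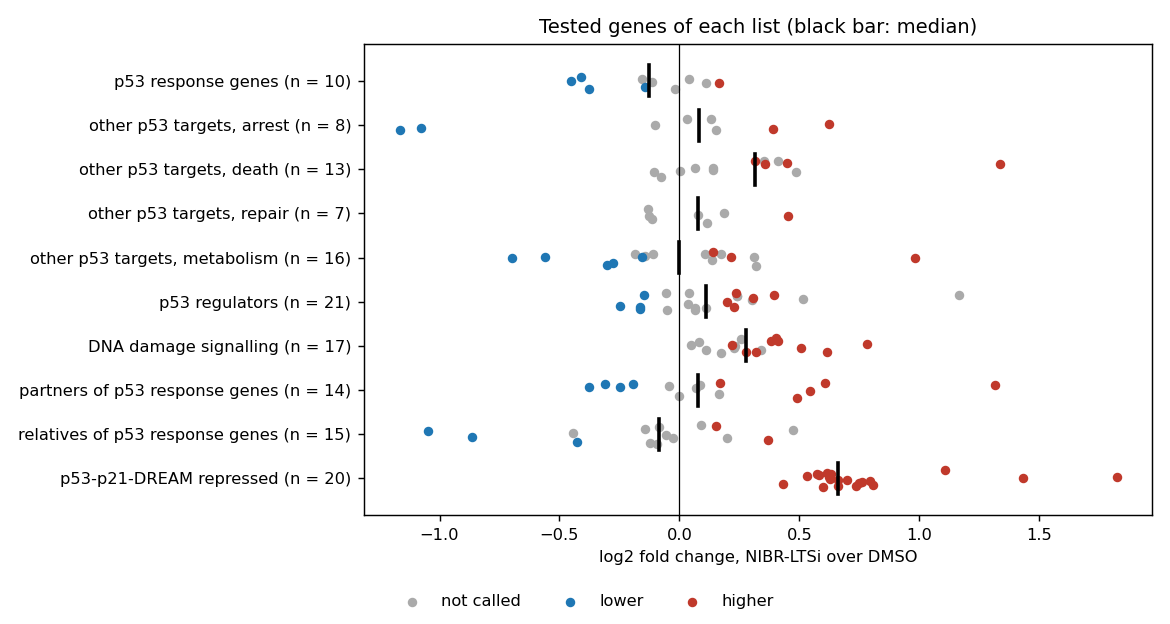
Log2 fold change (NIBR-LTSi over DMSO, x axis) of each tested gene of the p53 lists, with the list's median as a black bar; red points were called higher, blue lower and grey not called. The p53 response genes have a median of -0.13, and the genes repressed through p53, p21 and DREAM have a median of 0.66 with no gene below 0.

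The products with which the p53 response proteins act were counted next. Of 14 tested partners 5 rose and 4 fell, which is 64.3% called, against 42% of all genes tested (22.8% higher and 19.2% lower). Cyclin genes of the kinases that p21 inhibits rose: Ccnd1 2.49-fold to 94.3 ± 4.1 CPM, against 38.0 ± 2.0 CPM with DMSO (adjusted p = 6.94e-09), Ccne1 1.52-fold (0.00447) and Ccne2 1.41-fold (0.0192), while Cdk2 (adjusted p = 0.315) and Cdk4 (0.126) were not called. The survival genes Bcl2 and Mcl1 rose 1.46-fold (adjusted p = 0.00911) and 1.13-fold (0.00264), and Bcl2l2 fell 1.14-fold (0.0411). The initiator caspase genes Casp9 and Casp8 fell 1.24-fold (adjusted p = 4.82e-04) and 1.19-fold (8.11e-04), each with every NIBR-LTSi library below every DMSO library. The Ccne2 call was lost without NIBR-LTSi replicate 2 (0.0681) or DMSO replicate 3 (0.0614), that of Bcl2 without NIBR-LTSi replicate 2 (0.0562), and that of Bcl2l2 without NIBR-LTSi replicate 1 (0.117) or 3 (0.0558) or DMSO replicate 1 (0.168) or 3 (0.0773). The Bcl2l2 call held in 8 of the 17 alternatives: it also ended without NIBR-LTSi replicate 1 and DMSO replicate 3 together (0.0707), in limma-voom (0.0543), with upper-quartile factors (0.0521) and with library totals only (0.141). Ccne2 was not called in DESeq2 (0.118) or in that joint omission (0.103).

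Family relatives of the 10 products were called in 5 of 15 cases (33.3%, against 42% of all genes tested), 2 higher and 3 lower. Gadd45b fell 1.82-fold, to 6.34 ± 0.22 CPM with NIBR-LTSi, against 11.6 ± 0.4 CPM with DMSO (adjusted p = 1.21e-05), and Gadd45g was at 1.91 ± 0.34 CPM with NIBR-LTSi and 2.60 ± 0.57 CPM with DMSO (adjusted p = 0.143). The TNF receptor gene Tnfrsf1a fell 1.34-fold (adjusted p = 8.27e-06). Sesn3 rose 1.29-fold (adjusted p = 0.00967; 0.0519 without DMSO replicate 2), so the sestrin genes Sesn1 and Sesn3 were called in opposite directions, while Sesn2 was at 23.7 ± 0.5 CPM with NIBR-LTSi and 26.1 ± 2.7 CPM with DMSO (adjusted p = 0.157). Bak1, the other pore former beside Bax, was at 192 ± 4 CPM with NIBR-LTSi and 205 ± 1.3 CPM with DMSO (adjusted p = 0.0530); leaving out NIBR-LTSi replicate 1 gave 0.0397, leaving out DMSO replicate 3 as well 0.0158, limma-voom 0.0437, DESeq2 size factors 0.0368 and a minimum of 1 CPM 0.0433. Cdkn1b, which encodes p27, rose 1.11-fold (adjusted p = 0.0487), a call that held in 5 of the 17 alternatives. It held without NIBR-LTSi replicate 1 but not without any other single library (adjusted p up to 0.288), nor in limma-voom (0.0614) or DESeq2 (0.146), nor with DESeq2 size factors (0.0708), a minimum of 1 CPM (0.0504) or the width adjustment (0.0610). Zmat4 fell 2.07-fold from a low level, at 0.604 ± 0.259 CPM with NIBR-LTSi and 1.28 ± 0.12 CPM with DMSO (adjusted p = 0.0217), a call that ended without NIBR-LTSi replicate 1 (0.0753) or 2 (0.0781) or DMSO replicate 1 (0.0888) or 3 (0.0501), without NIBR-LTSi replicate 1 and DMSO replicate 3 together (0.0775) and in DESeq2 (0.0604). The number of relatives called was 3 in DESeq2 and without NIBR-LTSi replicate 2, DMSO replicate 1 or DMSO replicate 3. Over all genes the number called ranged from 4212 to 5636 over the 17 alternatives, against 5287 as reported.

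Genes whose level varied most like a p53 response gene over the 6 libraries were found by Pearson's r of log2 CPM, among tested genes with a mean of at least 5 CPM. For Cdkn1a these were Acat1 (r = 0.987), Micos10 (0.9747) and Slc35f5 (0.973), none of which was called. For Mdm2 they were Rab5b (r = 0.998), Prr15 (0.991) and Nek6 (0.990), each called lower. The points share libraries, depth and the difference between the groups, so these values describe the 6 libraries only. They were also picked as the highest among all genes compared, and high values are easily reached over 6 points.

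**Figure D5:**
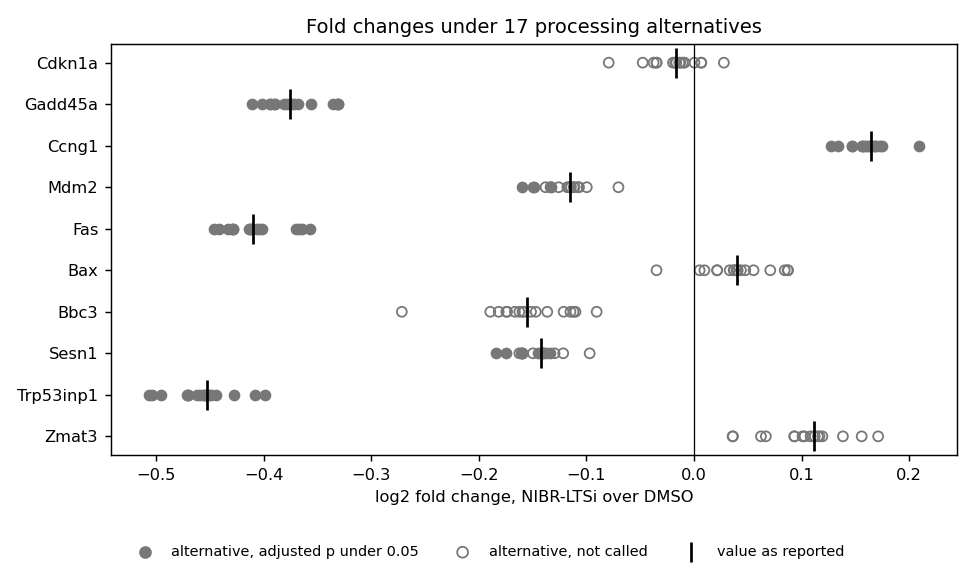
Log2 fold change (NIBR-LTSi over DMSO, x axis) of each p53 response gene under 17 other ways of processing (circles; filled where the adjusted p was under 0.05) beside the value as reported (black line). Trp53inp1, Fas, Gadd45a and Ccng1 are filled throughout, Sesn1 and Mdm2 are mixed, and Cdkn1a, Bax, Bbc3 and Zmat3 are open throughout.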

How the data were processed

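Messenger RNA of mouse small-intestinal organoids was sequenced in 3 NIBR-LTSi and 3 DMSO libraries made, per the labels' protocols, from 200 ng of total RNA each with a stranded kit. The authors deposited 1 table of raw read counts per gene for the 6 libraries with a gene width in bases per row; per the submitters' processing notes the build was mm10 and edgeR was used, and no aligner, counter or strand setting is stated in those sources. The count totals are given in the report, and they set the counting precision of each value.

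Libraries were grouped by their titles and compared with edgeR 4.0.16 (R 4.3.3): filterByExpr, TMM factors, robust quasi-likelihood F-test, two-sided, group as the only term. SE is the size of the log2 fold change over the root of F, and intervals use it with 11.6 degrees of freedom (95%). The common dispersion corresponds to a coefficient of variation of 6.02%. A simulation was built on the real mean counts and totals (NIBR-LTSi against DMSO, 12592 genes). In it 62 genes were changed 1.25-fold, 71 genes 1.5-fold and 67 genes 2-fold, and 50%, 84.5% and 83.6% of them were recovered. Far fewer genes were changed there than the 5287 called in the data, which makes the adjusted threshold stricter. These shares therefore do not give the recovery in the data. No library pair within a group agreed within sampling noise (chi-square per degree of freedom 4.46 to 11.3). Positions are from RefSeq and exon overlaps from GENCODE M21, both on GRCm38, which is mm10. Named genes were the 10 p53 response genes, up to 3 genes with the smallest p per list and 3 genes most like Cdkn1a and Mdm2. Trp53, Mdm4, Pmaip1, Perp, Chek1, Chek2, Atm, Atr, Prkdc and Bak1 were named after their values were seen. So were the family and partner genes, markers, the smallest rise of a list and members of counts of 5 or fewer. The genes and lists were chosen with earlier results of these data known. The values of 1 listed gene are not reported here. Alternatives were limma-voom (limma 3.58.1), DESeq2 1.42.0, other scalings and filters, a replicate term, an offset for gene width, and leaving out libraries.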

Additional observations from a re-analysis of the deposited data

How the results depend on the processing

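Over the 17 alternatives Trp53inp1, Fas, Gadd45a and Ccng1 kept their direction and their call. The number of p53 response genes called ranged from 4 to 6 (4 to 5 when 1 library was left out) and of all genes from 4212 to 5636. Sesn1 lost its call in 6 alternatives and Mdm2 gained one in 4, as given with each gene. Signs turned only where no call was made: Cdkn1a was at 0.028 (log2) with library totals only, 0.0066 after the width adjustment, 0.0068 after that adjustment with the replicate block and 3.24e-04 when DMSO replicate 2 was left out. Over the alternatives that left out libraries Cdkn1a ranged from -0.079 to 3.24e-04, Bax from -0.035 to 0.071, Chek2 from -0.0082 to 0.127 and Mdm4 from -0.128 to 0.033. With NIBR-LTSi replicate 1 and DMSO replicate 3 both left out, Bax was at -0.035, Chek2 at -0.0082 and Mdm4 at 0.033; without NIBR-LTSi replicate 1 alone Mdm4 was at 0.0063. This joint omission was chosen after seeing the data, since those libraries were highest of their groups in the long transcripts Huwe1, Hipk2 and Atm. Called regulators ranged from 4 to 10 and called relatives from 3 to 6 when 1 library was left out (11 and 6 in the joint omission), and DESeq2 called 3 relatives. The causes were not tested.

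Whether replicate numbers pair the samples could not be decided. Same-numbered libraries deviated together with r = 0.05, -0.30 and 0.56, and not every library correlated best with its own number. The highest correlation of all pairs was that of the same-numbered replicates 3 (0.56). Deviations from the mean of only 3 libraries are tied to one another, so these values cannot exclude pairing. With the replicate block 4945 genes were called, against 5287 without it, and the 5 calls among the p53 response genes held. Among the other genes named, the block ended the calls of Kat5 (adjusted p = 0.0533), Trp53bp1 (0.0685), Prkab1 (0.0655), Bcl2l2 (0.0738) and Cdkn1b (0.0566). No scaling moved the median of all genes by more than 0.1 (log2). Library totals only shifted the split of all calls to 3425 higher and 1921 lower, against 2866 higher and 2421 lower as reported.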
